A study of Mus musculus with 9 samples.

Results

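Mitochondrial ribosomal protein (MRP) genes were followed in RNA-seq of the left ventricle of mice. They were taken as every gene whose symbol began with Mrpl or Mrps followed by a digit, with a rounded count of at least 10 in at least 2 of the 9 libraries. All 81 such genes, of 20634 listed, met the count rule (15641 genes did in all), 50 of them Mrpl (large subunit) and 31 Mrps (small subunit). Of the 81, 77 were protein-coding and 4 were processed pseudogenes (Mrpl23-ps1, Mrpl48-ps, Mrps36-ps1 and Mrps36-ps2). The gene with the fewest counts, Mrpl23, had 4 to 22 counts per library, and the next, Mrps36-ps2, had 67 to 157.

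The mice were C57BL/6 animals, either delta-sarcoglycan knockouts (KO, lacking a membrane protein of the dystrophin-associated complex encoded by Sgcd) or wild type (WT), given from weaning either ifetroban in the drinking water, a drug that blocks the receptor for thromboxane (25 mg/kg/day), or plain water as vehicle. All had running wheels at intervals, and their hearts were taken at 6 months of age. There were 3 KO ifetroban, 2 KO vehicle, 2 WT ifetroban and 2 WT vehicle libraries. The labels do not say whether each library came from a separate animal, so p-values measure the spread between these libraries only. KO ifetroban replicate 1 carries ifetroban in its title and source name but vehicle in its treatment field. It is grouped here by its title.

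Mitochondrial ribosomes translate the few messages of mitochondrial DNA, which in mammals encode subunits of the respiratory chain and of ATP synthase. Their RNA comes from the mitochondrial genome, whereas all of their proteins are encoded in the nucleus, made in the cytosol and imported. The small subunit decodes the message and the large subunit forms the peptide bonds. In human, inherited defects of MRPL3, MRPL44, MRPS14 and MRPS22 cause cardiomyopathy, alone or with disease of other organs.

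The promoters of the 3 genes with the highest level per length are shown first, as examples of the windows searched for motifs. Each is the RefSeq window (GRCm38.p6) from 250 bases before to 50 bases after the gene start, 5′ to 3′ on the gene's strand, with motif matches in capitals. The motifs searched on both strands were CCGGAAG (ETS factors), GCGCANGCG (NRF1) and AAGATGGC (YY1). Mrps21 lies at chr3:95871465-95871764 on the minus strand and holds 1 ETS and 1 NRF1 match. Mrps23 lies at chr11:88204138-88204437 on the plus strand and holds 1 ETS match. Mrpl12 lies at chr11:120484387-120484686 on the plus strand and holds 1 NRF1 match.
Mrps21: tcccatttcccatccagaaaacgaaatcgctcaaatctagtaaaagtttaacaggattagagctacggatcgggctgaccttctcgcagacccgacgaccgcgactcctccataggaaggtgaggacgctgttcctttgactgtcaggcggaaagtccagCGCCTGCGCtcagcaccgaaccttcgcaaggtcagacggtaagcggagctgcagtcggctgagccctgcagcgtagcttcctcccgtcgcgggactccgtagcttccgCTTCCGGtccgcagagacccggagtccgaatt
Mrps23: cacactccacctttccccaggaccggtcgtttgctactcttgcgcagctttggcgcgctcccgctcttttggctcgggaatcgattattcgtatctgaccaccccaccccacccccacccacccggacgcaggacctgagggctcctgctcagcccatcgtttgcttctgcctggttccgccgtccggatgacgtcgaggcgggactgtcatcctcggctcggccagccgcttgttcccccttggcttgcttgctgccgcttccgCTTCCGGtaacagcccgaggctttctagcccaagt
Mrpl12: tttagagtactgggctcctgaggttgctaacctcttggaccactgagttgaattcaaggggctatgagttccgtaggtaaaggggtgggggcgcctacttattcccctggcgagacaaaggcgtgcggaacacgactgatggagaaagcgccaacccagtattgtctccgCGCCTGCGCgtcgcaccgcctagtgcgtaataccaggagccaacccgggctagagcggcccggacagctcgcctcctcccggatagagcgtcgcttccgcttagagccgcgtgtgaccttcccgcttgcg

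Of the 81 genes, 68 had a promoter window. The ETS motif was present in 24 of these windows (35.3%), against 9.12% of all 27025 windows and 17.1% of the windows of tested genes. The NRF1 motif was present in 16 (23.5%), against 6.47% of all windows and 13.2% of those of tested genes. The YY1 motif was present in 12 (17.6%), against 2.88% of all windows and 4.49% of those of tested genes. At least 1 of the 3 motifs was found in 42 windows, 27 of 42 large-subunit and 15 of 26 small-subunit ones, against 16.5% of all windows and 30.5% of those of tested genes. These matches describe letters in a window and were not tested as binding sites.

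A few facts on the libraries bear on all values. Totals ranged from 21510263 to 30182955 counts, and the MRP genes took 0.301% to 0.388% of them. Sgcd itself was measured at 7.30, 12.9 and 13.3 CPM (counts scaled by library size and TMM factor) in KO ifetroban and 9.64 and 8.63 CPM in KO vehicle, against 23.7 and 23.5 CPM in WT ifetroban and 8.36 and 20.9 CPM in WT vehicle. For the targeted gene the library labelled WT vehicle replicate 1 lay within the range of the KO libraries. Its summed macrophage markers and its level of the atrial marker Nppa lay with the other WT libraries. Of the defining markers, all 8 of ventricular cardiomyocytes were present in every group, with summed levels of 44238 to 48203 CPM in KO ifetroban, 41498 to 44684 CPM in KO vehicle, 52556 to 54076 CPM in WT ifetroban and 50154 to 52087 CPM in WT vehicle.

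The libraries also fell into 2 sets by transcript length. For each library the rank correlation across 12896 protein-coding genes, MRP and cytosolic ribosomal protein genes left out, was taken between transcript length and the gene's deviation from its mean over the libraries. This length slope was negative, from -0.52 to -0.40, in KO ifetroban replicate 1, both KO vehicle libraries and the library labelled WT vehicle replicate 1. The slope was positive, from 0.38 to 0.43, in KO ifetroban replicates 2 and 3, both WT ifetroban libraries and WT vehicle replicate 2. The set and the treatment are largely confounded, since 1 of 5 ifetroban libraries and 3 of 4 vehicle libraries have a negative slope. What separates the sets is not given in the labels. Sgcd also differed by set. In KO it was 7.30 to 9.64 CPM with a negative slope and 12.9 to 13.3 CPM with a positive one. In WT it was 8.36 CPM in the library labelled WT vehicle replicate 1, of negative slope, and 20.9 to 23.7 CPM in the others. The part of the set in the Sgcd level was not tested.

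Levels of the MRP genes are compared between genes as CPM per kilobase of the longest GENCODE transcript. They ran from Mrps21, a small-subunit protein, at 127 CPM per kb on average over the 9 libraries, down to Mrps10 of the same subunit at 3.09 CPM per kb, with Mrpl23 far below at 0.13 CPM per kb. Mrps21 had 74.6, 50.8 and 50.2 CPM in KO ifetroban and 63.6 and 67.6 CPM in KO vehicle, against 54.1 and 53.0 CPM in WT ifetroban and 86.8 and 58.1 CPM in WT vehicle. Its libraries with a negative length slope were all above those with a positive one, and KO and WT overlapped. After Mrps21 came Mrps23 at 103 CPM per kb and Mrpl12 at 102 CPM per kb, the protein of the stalk on the large subunit to which translation factors dock. Mrpl18 at 76.6 and Mrpl28 at 75.9 CPM per kb, both large-subunit proteins, completed the highest 5. Over the libraries Mrps23 ran from 83.9 to 129 and Mrpl12 from 80.3 to 127 CPM per kb, so that neighbours in this order overlapped. Mrps22, the lowest but for Mrps10 and Mrpl23, was at 4.27 CPM per kb. With the longest protein-coding transcript in place of the longest of any kind, Mrpl42 came first at 191 CPM per kb, followed by Mrps21 and by Mrpl33 at 109 CPM per kb. Mrps22 then stood at 11.8, Mrps10 at 11.4 and Mrpl23 at 0.67 CPM per kb.

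**Figure D1:**
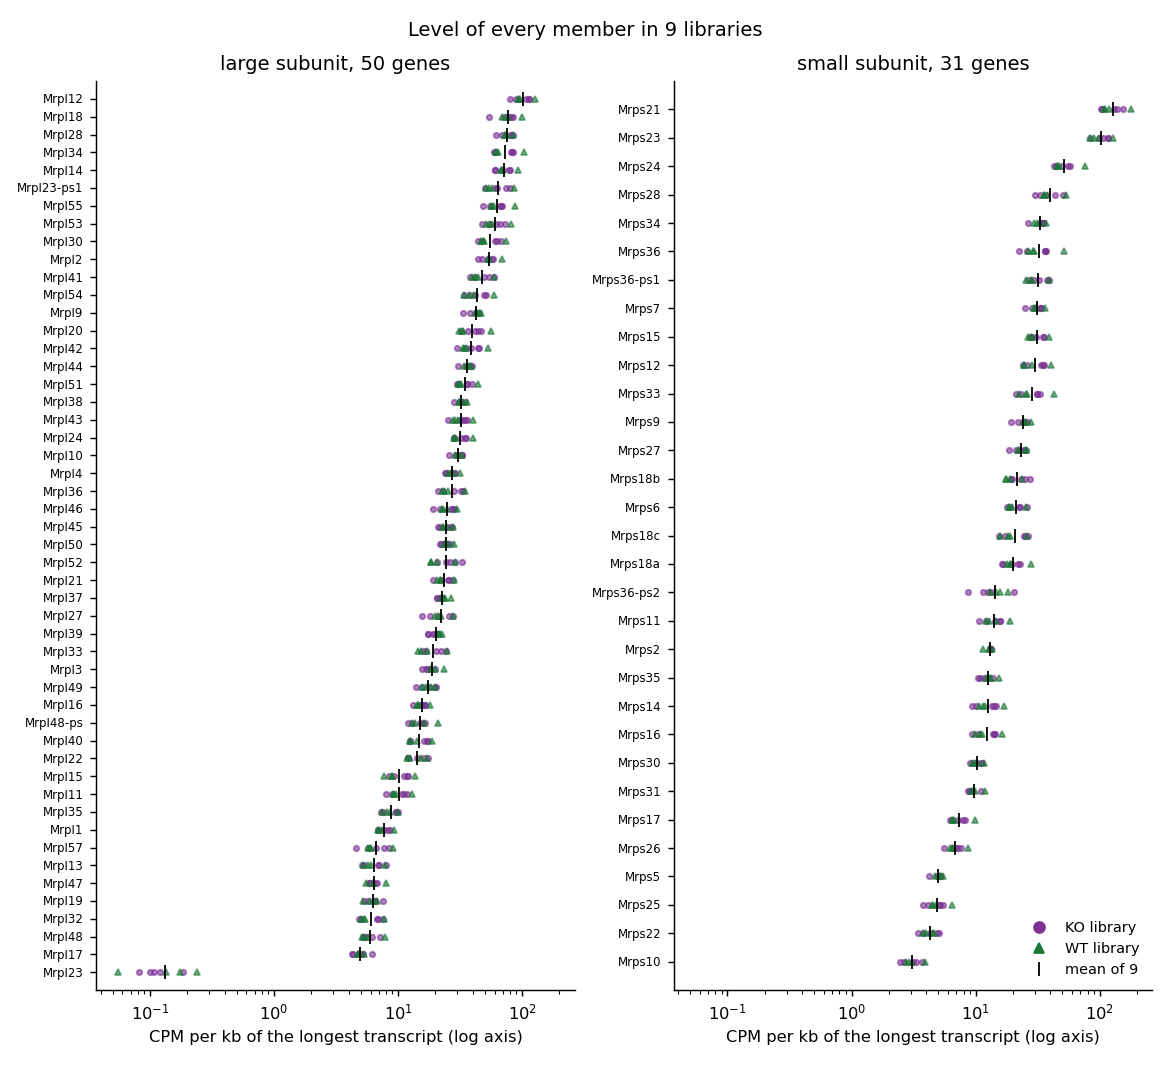
Level of each of the 81 genes in the 9 libraries, as CPM per kilobase of the longest transcript on a log axis, for the large and the small subunit, with KO libraries as circles, WT libraries as triangles and the mean of 9 as a bar. All but Mrpl23, at 0.13 CPM per kb, have a mean between 3.09 and 127 CPM per kb, and KO and WT libraries overlap along the whole range.

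Mrpl23 has an identical copy among the pseudogenes. Over 540 aligned bases the Mrpl23 transcript and Mrpl23-ps1 on chromosome 2 were identical at 540, as in the first 90 bases of the Mrpl23 reading frame (chromosome 7), shown to make plain that a read inside it has 2 equally good places (GENCODE M21 transcripts, GRCm38).
Mrpl23: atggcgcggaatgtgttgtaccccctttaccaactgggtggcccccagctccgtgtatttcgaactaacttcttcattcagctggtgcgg
Mrpl23-ps1: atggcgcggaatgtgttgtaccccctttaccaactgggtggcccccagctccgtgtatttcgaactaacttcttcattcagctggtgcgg

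Mrpl23-ps1 held 708 to 1111 counts per library and Mrpl23 itself 4 to 22, so that 97.2% to 99.55% of the counts of the pair were assigned to the pseudogene. The pseudogenes of Mrps36 differ from their parent at few bases. Mrps36-ps1 on chromosome 17 matched the Mrps36 transcript at 304 of 306 bases, and Mrps36-ps2 on chromosome 7 at 306 of 309. Bases 40 to 129 of the Mrps36 reading frame (chromosome 13) are given below with the pseudogene stretches, capitals marking positions where a pseudogene differs from Mrps36.
Mrps36: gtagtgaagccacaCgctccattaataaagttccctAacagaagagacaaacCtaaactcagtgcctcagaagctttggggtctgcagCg
Mrps36-ps1: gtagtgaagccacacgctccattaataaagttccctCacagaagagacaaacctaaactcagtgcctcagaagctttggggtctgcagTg
Mrps36-ps2: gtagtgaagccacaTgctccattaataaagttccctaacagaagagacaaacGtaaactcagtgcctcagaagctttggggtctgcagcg

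Together both Mrps36 pseudogenes took 32.9% to 41.8% of the counts of the trio, and Mrpl48-ps, identical to Mrpl48 at 624 of 636 bases, took 24.8% to 31.5% of its pair. Values of these 7 genes are uncertain, since the sources used here do not give how reads with several places were counted. Of the 81 genes 25, among them Mrps18a, Mrps18b, Mrps18c, Mrps24, Mrpl49 and the divergent pair Mrpl46 and Mrps11, overlap another tested gene, 21 of them on the opposite strand, and whether counting used the strand is not stated.

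Across libraries the MRP genes moved as a block with the length slope. The mean deviation of the 81 genes from their 9-library means, on the log2 CPM scale, was 0.16, -0.23 and -0.19 in KO ifetroban and 0.06 and 0.16 in KO vehicle, against -0.10 and -0.08 in WT ifetroban and 0.31 and -0.09 in WT vehicle. The 4 libraries above 0 are the 4 with a negative length slope, and the 5 below 0 are the 5 with a positive one. Within each set every KO library was below every WT library. The same order held for the summed level of the genes, which was 3799, 2890 and 3031 CPM in KO ifetroban and 3591 and 3787 CPM in KO vehicle, against 3167 and 3252 CPM in WT ifetroban and 4303 and 3204 CPM in WT vehicle. As bulk tissue was sequenced, fewer cells of a type and less RNA per cell cannot be told apart.

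**Figure D2:**
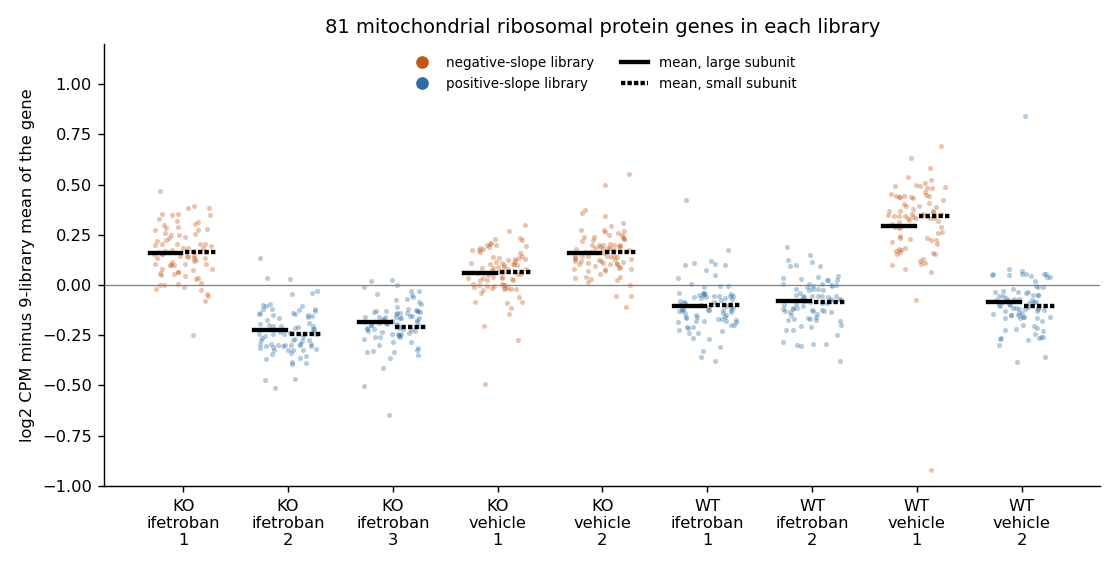
Deviation of each of the 81 genes from its mean over 9 libraries (log2 CPM, 1 point a gene), by library, coloured by the sign of the length slope, with the mean of the large subunit as a solid bar and of the small subunit as a dotted bar. The 4 libraries with a negative slope have means above 0 and the other 5 have means below 0, with the bars of both subunits side by side in each library.

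Of the 81 genes, 54 (34 large-subunit and 20 small-subunit) were higher in all 4 libraries with a negative slope than in all 5 with a positive one, against 12.1% of all tested genes. In the opposite direction it was 0 of 81, against 15.9% of tested genes. The split ran inside replicate groups. KO ifetroban replicate 1 exceeded the mean of replicates 2 and 3 for 79 of 81 genes, with a median log2 difference of 0.38, against -0.01 over all tested genes. WT vehicle replicate 1 exceeded replicate 2 for 79 of 81 genes as well, by a median of 0.44 against -0.04 over all tested genes. Replicates from 1 set differed less, with medians of -0.10 between the KO vehicle libraries, -0.04 between the WT ifetroban libraries and -0.04 between KO ifetroban replicates 2 and 3. The MRP genes have shorter transcripts than most, with a median of 1757 bases against 3180 bases for all tested genes, and a median GC content of 49.4% against 49.7%. Among MRP genes up to the median length KO ifetroban replicate 1 differed from replicates 2 and 3 by a median of 0.45, against 0.33 among the longer ones. Other short-transcript groups differed in the same direction, with medians of 0.58 for the cytosolic ribosomal proteins and 0.50 for respiratory chain subunits in that contrast. The share of counts on nuclear pseudogenes that resemble mitochondrial genes also followed the split, at 29.0% to 31.7% in libraries with a negative slope and 22.7% to 27.0% in those with a positive one. Summed endothelial markers split by set in the other direction, at 495 to 616 CPM in libraries with a negative slope and 666 to 771 CPM in the others. Taken singly, Cdh5 and Tie1 lay lower in all libraries with a negative slope, and Kdr and Pecam1 overlapped between the sets. Of the 8 cardiomyocyte markers 2 lay lower in all libraries with a negative slope. These were Myh6 (12231 to 14398 against 18560 to 23121 CPM) and Ryr2 (971 to 1131 against 1993 to 2209 CPM). Actc1 lay higher in all of those libraries, at 8805 to 9193 against 6436 to 8712 CPM, and the other markers overlapped between the sets. The part of these markers in the result was not tested. That of the pseudogenes was not tested beyond leaving them and Gm42418 out together. This left the median change of the MRP genes under ifetroban over both genotypes at -0.21.

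**Figure D3:**
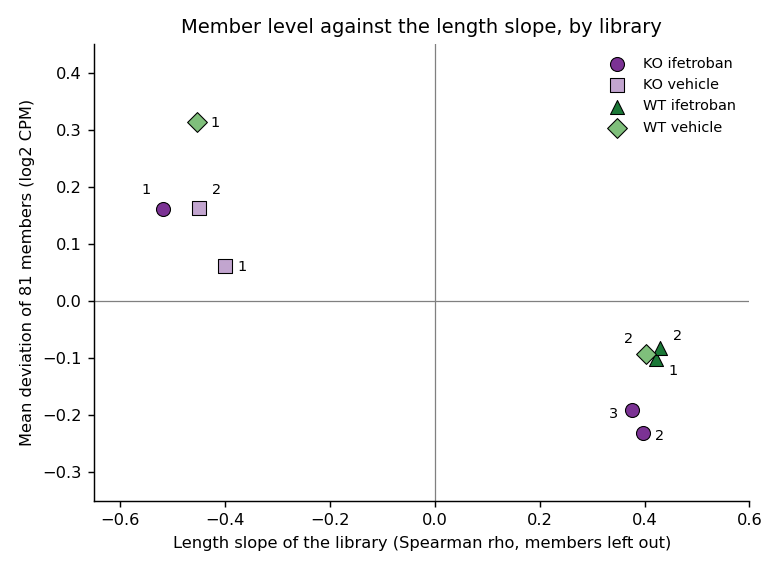
Mean deviation of the 81 genes (log2 CPM) against the length slope of each library (Spearman rho, MRP genes left out of it), 1 point a library, with its replicate number. The libraries form 2 clusters, and within each the WT libraries lie above the KO libraries.

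Large and small subunit moved together. The mean deviation of the large-subunit genes minus that of the small-subunit genes was -0.00, 0.02 and 0.02 in KO ifetroban and -0.01 and -0.01 in KO vehicle, against -0.00 and 0.00 in WT ifetroban and -0.05 and 0.02 in WT vehicle. The summed large-subunit level was 2.03 to 2.07 times that of the small subunit in KO ifetroban and 2.04 times in KO vehicle, against 2.03 to 2.06 times in WT ifetroban and 2.01 to 2.06 times in WT vehicle. All these values lie close together, the library labelled WT vehicle replicate 1 having the lowest of both measures. The split by symbol is not quite the structural one, since in the mammalian mitoribosome Mrps18a and Mrps30 sit in the large subunit.

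The genotype comparisons ask whether loss of delta-sarcoglycan goes with another level of the MRP genes. With groups alone in the model, edgeR's quasi-likelihood test (Benjamini-Hochberg adjusted p under 0.05 over 15549 genes) called 0 of 81 for KO ifetroban against WT ifetroban, where it called 0.0386% of all tested genes, 0 of 81 for KO vehicle against WT vehicle (0.0515% of all) and 0 of 81 for KO against WT over both treatments (2.33% of all). The median log2 change was 0.01, -0.02 and -0.00 in this order. Under ifetroban it was -0.11 without KO ifetroban replicate 1, and also -0.11 with that library counted as vehicle, 0.12 without replicate 2 and 0.08 without replicate 3. At an unadjusted p under 0.05, 1 gene was lower under ifetroban (3.12% of all genes), 0 under vehicle (2.69%) and 1 over both treatments (6.74%), and none was higher. DESeq2's Wald test also called 0 of 81 in each, against 1.87%, 0.926% and 5.76% of all genes.

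The gene lower in KO at an unadjusted p was Mrpl39, a large-subunit protein, at chr16:84717576-84735742. Mrpl39 had 43.5, 40.2 and 39.8 CPM in KO ifetroban and 45.7 and 48.3 CPM in KO vehicle, against 49.4 and 49.8 CPM in WT ifetroban and 51.8 and 47.8 CPM in WT vehicle. Under ifetroban KO and WT did not overlap, and under vehicle KO vehicle replicate 2 lay above WT vehicle replicate 2. Its log2 change in KO was -0.27 (SE 0.11, adjusted p = 0.49 by edgeR) under ifetroban and -0.18 (SE 0.08, adjusted p = 0.29 by edgeR) over both treatments. The others with the smallest p did not pass either. Over both treatments these were Mrpl37 at -0.15 (SE 0.08), and in the other direction Mrpl52 at 0.33 (SE 0.16) and Mrps18b at 0.25 (SE 0.13), all log2 changes of KO against WT. Under ifetroban Mrps27, which has a pentatricopeptide-repeat fold, stood at -0.20 (SE 0.14), with Mrpl52 at 0.41 (SE 0.23) and Mrpl33 at 0.36 (SE 0.21). Under vehicle Mrpl37 was at -0.18 (SE 0.13), Mrpl48-ps at -0.32 (SE 0.24), Mrps18c at 0.30 (SE 0.27) and Mrpl49 at 0.18 (SE 0.16).

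Because the length slope and the genotype groups cross, KO and WT were also compared within each set. In libraries with a positive slope (KO ifetroban replicates 2 and 3 against both WT ifetroban libraries and WT vehicle replicate 2), 71 of 81 genes had a lower mean in KO, with a median log2 difference of -0.11 against -0.01 over all tested genes. In libraries with a negative slope (3 KO libraries against the library labelled WT vehicle replicate 1), 73 of 81 were lower, with a median of -0.20 against -0.01. KO lay below WT without overlap for 38 of 81 genes in the positive set (17.3% of all tested genes), 63 of 81 in the negative set (33% of all) and 30 of 81 in both (8.99% of all). The reverse, KO above WT without overlap in both sets, held for 0 of 81, against 8.72% of all genes.

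**Figure D4:**
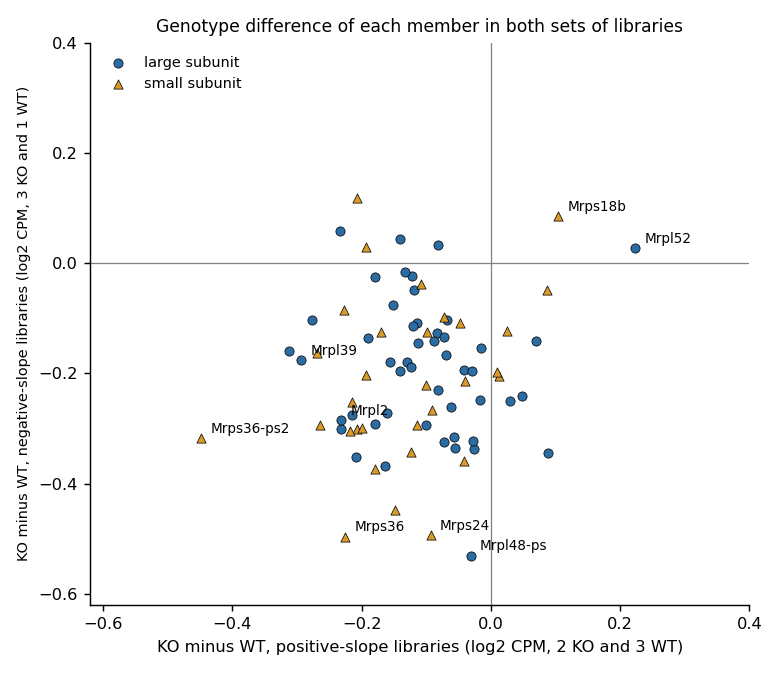
Log2 CPM difference KO minus WT of each gene in the libraries with a positive length slope (x axis) and in those with a negative one (y axis), large subunit as circles and small subunit as triangles, with Mrpl23 outside the axes. Of 81 genes 65 lie below 0 on both axes and 2, Mrpl52 and Mrps18b, above 0 on both.

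With the sign of the length slope as a term in the model, the median log2 change of the MRP genes in KO was -0.13 under ifetroban, -0.19 under vehicle and -0.15 over both treatments, against -0.02, 0.00 and -0.01 over all tested genes. The subunits again stood together, at -0.14 for the large and -0.16 for the small subunit over both treatments. At an unadjusted p under 0.05, 12 of 81 were lower under ifetroban (6.23% of all genes), 28 under vehicle (6.82%) and 32 over both treatments (8.53%), with none higher. After adjustment 0 of 81 passed under ifetroban (0.92% of all), 0 under vehicle (0.759%) and 1 over both treatments (3.04% of all).

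That gene was Mrpl2, a protein of the core of the large subunit, at chr17:46646229-46650139. Mrpl2 had 60.5, 45.2 and 48.9 CPM in KO ifetroban and 55.0 and 58.9 CPM in KO vehicle, against 55.6 and 55.5 CPM in WT ifetroban and 70.8 and 54.6 CPM in WT vehicle. Taken over all libraries KO and WT overlapped, whereas within each set they did not. With the slope term its log2 change in KO was -0.27 (SE 0.06, adjusted p = 0.043 by edgeR), and with groups alone -0.12 (SE 0.11, adjusted p = 0.62 by edgeR). Mrpl39 was at -0.24 (SE 0.07, adjusted p = 0.082 by edgeR) with the slope term. Where a spline on transcript length and GC content served as offset in place of the slope term, 2 of 81 passed (5.07% of all genes), Mrpl39 at -0.28 (SE 0.06, adjusted p = 0.033 by edgeR) and Mrpl2 at -0.25 (SE 0.06, adjusted p = 0.043 by edgeR).

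These values lean on the library labelled WT vehicle replicate 1. It is the only WT library with a negative slope, and its Sgcd level lay in the KO range. Without it and with the slope term, the median change in KO was -0.10 under ifetroban, -0.17 under vehicle and -0.11 over both treatments. Then 7 of 81 (4.41% of all genes), 7 of 81 (2.22%) and 9 of 81 (4.57%) were lower at an unadjusted p under 0.05, in the same order. The comparison under vehicle then has 1 WT library, of positive slope, against 2 KO libraries of negative slope. Its p-values assume that this library varies like the other groups. Its slope term comes from KO ifetroban alone, the only group left with libraries of both slope signs. The negative one there is KO ifetroban replicate 1, whose treatment field reads vehicle, so the median of -0.17 rests on that library. None passed after adjustment over both treatments, against 0.87% of all genes, and Mrpl2 stood at -0.24 (SE 0.08, adjusted p = 0.25 by edgeR). Without it and without the slope term the median under vehicle turned to 0.23 and that over both treatments to 0.11, with 2 of 81 (5.84% of all genes) and 5 of 81 (12.5%) higher at an unadjusted p under 0.05.

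Other gene groups differed between KO and WT beside the MRP genes. The summed ventricular cardiomyocyte markers given above were lower in every KO library than in every WT library. Taken singly, each of the 8 genes overlapped between KO and WT. Myh6, the highest of them, ran from 12231 to 20919 CPM in KO and from 14398 to 23121 CPM in WT. With the slope term the median log2 change in KO was -0.22, and 5 of 8 genes were lower at an unadjusted p (8.53% of all genes). Summed macrophage markers were 372 to 431 CPM in KO ifetroban and 365 to 416 CPM in KO vehicle, against 170.0 to 227 CPM in WT ifetroban and 205 to 237 CPM in WT vehicle, and all 5 of 5 rose over both treatments (edgeR, adjusted), against 2.06% of all genes. Summed fibroblast markers were 771 to 986 CPM in KO ifetroban and 1026 to 1138 CPM in KO vehicle. In WT they were 674 to 710 CPM under ifetroban and 635 to 678 CPM under vehicle. Of these markers Col1a1 and Col1a2 were past the threshold as higher, against 2.06% of all genes. Dcn was not (adjusted p = 0.12 by edgeR), and Dcn, Lum and Pdgfra each overlapped between KO and WT. Summed atrial markers, with Sln not analysed here, were 350.2 to 706 CPM in KO ifetroban and 864 to 906 CPM in KO vehicle. In WT they were 203 to 273 CPM under ifetroban and 203 to 213 CPM under vehicle. Nearly all of this sum was Nppa, at 905 of 906 CPM in KO vehicle replicate 1, and Nppa was past the threshold. Myl4 was at 0.56 to 1.59 CPM, KO and WT overlapping, and Myl7 had 0 to 7 counts per library. The part of these gene groups in the level of the MRP genes was not tested.

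Genes that work with the mitoribosome were described in the same way, over both treatments. Of all tested genes 6.74% were lower at an unadjusted p under 0.05 with groups alone and 8.53% with the slope term, beside which the counts below stand. Among 15 translation factors, which start, extend and end mitochondrial protein chains, 0 passed the threshold, 7 were lower in KO at an unadjusted p and the median log2 change was -0.18, and with the slope term 6 were lower with a median of -0.17. Among 26 assembly factors 2 were lower, with a median of -0.11, and with the slope term 3 were lower with a median of -0.13, counts near the share of all genes. Among 20 mitochondrial aminoacyl-tRNA synthetases, which charge the tRNAs, 4 were lower with a median of -0.14, and 3 were lower with a median of -0.14 with the slope term. The 17 genes of mitochondrial DNA transcription and its regulators had a median of -0.11, and -0.06 with the slope term. The 6 tested mitoribosome proteins with other symbols had a median of -0.02, and -0.18 with the slope term, where 4 of 6 were lower at an unadjusted p. The 69 respiratory chain subunits, the largest group downstream, had a median of -0.02, and -0.22 with the slope term. With that term 60 of 69 were lower at an unadjusted p. Past the threshold were 2 of 69, Ndufc2 and Ndufs4, against 3.04% of all genes. The 78 cytosolic ribosomal proteins had a median of 0.18 with groups alone and of -0.06 with the slope term. Rpl3 was past the threshold as higher in KO in both (0.54 with groups alone, adjusted p = 0.031 by edgeR). Of all genes 2.33% passed with groups alone and 3.04% with the slope term.

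Ifetroban was compared with vehicle to ask whether blocking the receptor goes with another level of these genes. With groups alone the MRP genes were lower on average under ifetroban, and 0 of 81 passed. The median log2 change was -0.17 in KO, with 2 of 81 above 0, -0.23 in WT, with 5 of 81 above 0, and -0.20 over both genotypes, with 0 of 81 above 0, against medians of 0.01 over all tested genes in each. The percentage of all tested genes past the threshold was 0 in KO, 0 in WT and 0 over both genotypes by edgeR, and 0, 0 and 0.0129 by DESeq2, which also called 0 of 81. At an unadjusted p under 0.05, 1 of 81 was lower in KO (1.69% of all genes), 0 in WT (1.22%) and 9 over both genotypes (2.84%), and none was higher.

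These counts turn on single libraries. Over both genotypes, 49 of 81 were lower at an unadjusted p without KO ifetroban replicate 1 (9.75% of all genes) and 38 without WT vehicle replicate 2 (7.44%). The count was 3 without WT ifetroban replicate 2 (1.72%), 1 without KO ifetroban replicate 2 (1.54%), KO ifetroban replicate 3 (1.86%) or KO vehicle replicate 2 (1.5%), and 0 without WT ifetroban replicate 1 (2.12%) or WT vehicle replicate 1 (1.49%). With KO ifetroban replicate 1 counted as vehicle it was 61 (12.5%). In WT the count was 34 without WT vehicle replicate 2 (8.16%) and 7 without KO ifetroban replicate 1 (2.11%), and in KO it was 24 without KO ifetroban replicate 1 (5.4%). The median over both genotypes was -0.27 without KO ifetroban replicate 1 and -0.11 without WT vehicle replicate 1, and that in KO was -0.09 without KO ifetroban replicate 2 and -0.11 without replicate 3.

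**Figure D5:**
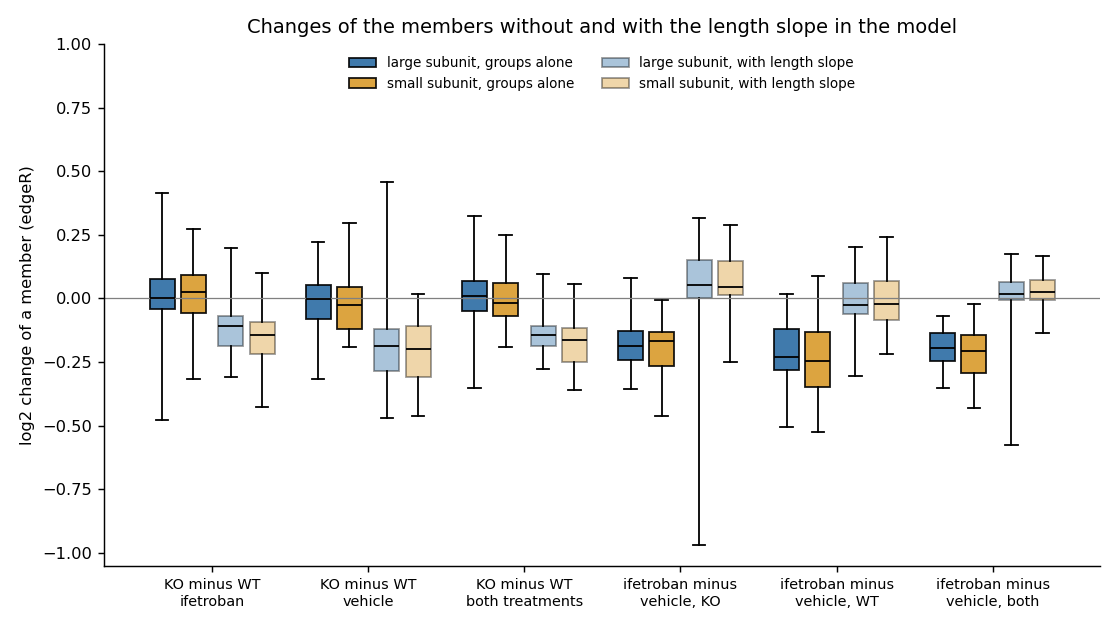
Log2 change of the genes of the large and the small subunit in 6 comparisons, with groups alone in the model (dark) and with the sign of the length slope as a term (pale). Boxes give quartiles and median and whiskers reach the lowest and highest gene. The KO minus WT boxes drop below 0 with the slope term (median -0.15 over both treatments) and the ifetroban boxes move to about 0 (median 0.02 over both genotypes).

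The 9 genes were Mrps33, Mrps11, Mrpl30, Mrpl53, Mrps16, Mrpl34, Mrpl18, Mrps23 and Mrps31. Mrps33, a small-subunit protein found in mitochondria but not in bacteria, at chr6:39801804-39810988, had the smallest p, with a log2 change of -0.43 (SE 0.16, adjusted p = 0.55 by edgeR). It had 34.3, 23.4 and 25.7 CPM in KO ifetroban and 34.5 and 36.4 CPM in KO vehicle, against 24.9 and 28.2 CPM in WT ifetroban and 47.8 and 28.6 CPM in WT vehicle. The high libraries were the 4 with a negative length slope, KO ifetroban replicate 1 among them, and treatments overlapped. Mrps11, of the platform of the small subunit, had a log2 change of -0.33 (SE 0.13). In KO the smallest p values belonged to Mrpl49 at -0.34 (SE 0.15) and Mrps27 at -0.26 (SE 0.14), with Mrpl48-ps at 0.08 (SE 0.22) and Mrpl48 at 0.01 (SE 0.18) the first of the genes above 0. In WT they belonged to Mrps11 at -0.43 (SE 0.20) and Mrpl33 at -0.49 (SE 0.23), with Mrps5 at 0.09 (SE 0.14) and Mrps22 at 0.03 (SE 0.21) above 0. None of these passed the threshold.

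Among libraries with the same sign of the length slope, the medians under ifetroban lay near 0. In the negative set KO ifetroban replicate 1 against both KO vehicle libraries gave a median of 0.04. That is 1 library, whose treatment field reads vehicle, and by that field the comparison holds no ifetroban library. The slope-term value in KO rests on the same library and on the library labelled WT vehicle replicate 1. Only the groups of these libraries hold both slope signs. In the positive set both WT ifetroban libraries against WT vehicle replicate 2 gave a median of -0.01. With the slope term the median was 0.05 in KO, -0.02 in WT and 0.02 over both genotypes. The respiratory chain subunits, at -0.24 over both genotypes with groups alone, were at 0.05 with the slope term, and the cytosolic ribosomal proteins were at -0.26 and 0.10. As set and treatment overlap, an ifetroban effect of the size of the slope difference cannot be told apart from it in most libraries. The label conflict matters here. With KO ifetroban replicate 1 counted as vehicle, as its treatment field has it, the median in KO was -0.37, and 48 of 81 were lower at an unadjusted p under 0.05 (9.33% of all genes), while 0 of 81 passed after adjustment. Without that library the median in KO was -0.32.

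The interaction asks whether the change under ifetroban differed between KO and WT. None of the 81 genes passed by edgeR or by DESeq2 (0% of all tested genes by either), 0 were lower at an unadjusted p under 0.05 (0.984% of all genes) and 0 were higher. The median was 0.04, and it lay at -0.18 without the library labelled WT vehicle replicate 1 and at 0.24 without WT vehicle replicate 2. The genes with the smallest p were Mrpl49 at -0.34 (SE 0.22), Mrps27 at -0.27 (SE 0.20), Mrpl48 at 0.38 (SE 0.27) and Mrpl47 at 0.28 (SE 0.22).

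Of the 4 genes of human cardiomyopathy, Mrpl3 changed to a lower level in KO than most MRP genes. The others lay nearer the median, although Mrps14 stood close to Mrpl3 with the slope term. Over both treatments that median was -0.00 with groups alone and -0.15 with the slope term. Mrpl3 had 72.4, 62.4 and 68.0 CPM in KO ifetroban and 66.8 and 79.4 CPM in KO vehicle, against 79.0 and 73.8 CPM in WT ifetroban and 92.8 and 73.2 CPM in WT vehicle. Its log2 change in KO over both treatments was -0.18 (SE 0.10) with groups alone and -0.27 (SE 0.08, adjusted p = 0.082 by edgeR) with the slope term. Mrpl44, which has an RNase III-like fold, averaged 49.6 ± 6.4 CPM in KO ifetroban (SD, n = 3) and 54.0 ± 0.52 CPM in KO vehicle (n = 2), against 50.7 ± 3.2 CPM in WT ifetroban and 53.2 ± 2.8 CPM in WT vehicle (n = 2 each), a log2 change in KO of -0.01 (SE 0.09) with groups alone and -0.09 (SE 0.07) with the slope term. Mrps14 averaged 34.1 ± 8.3 CPM in KO ifetroban and 41.7 ± 1.2 CPM in KO vehicle, against 33.9 ± 2.5 CPM in WT ifetroban and 42.5 ± 11 CPM in WT vehicle. Mrps22 averaged 13.4 ± 2.8 CPM in KO ifetroban and 15.1 ± 1.3 CPM in KO vehicle, against 14.2 ± 1.3 CPM in WT ifetroban and 13.9 ± 2.0 CPM in WT vehicle. Over all libraries KO and WT overlapped for both, with log2 changes in KO of -0.01 (SE 0.15) for Mrps14 and 0.02 (SE 0.13) for Mrps22 with groups alone. With the slope term they were -0.24 (SE 0.07, adjusted p = 0.097 by edgeR) for Mrps14 and -0.16 (SE 0.10, adjusted p = 0.44 by edgeR) for Mrps22. Mrpl3 and Mrps14 lay lower in KO without overlap in both slope sets, Mrps22 in the positive set alone and Mrpl44 in neither.

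Mrps36 and Mrpl12 are given in every library. Mrps36, now counted as a subunit of the 2-oxoglutarate dehydrogenase complex, had 25.7, 18.4 and 15.7 CPM in KO ifetroban and 25.3 and 25.6 CPM in KO vehicle, against 20.5 and 20.8 CPM in WT ifetroban and 36.1 and 18.5 CPM in WT vehicle. KO and WT overlapped over all libraries, and the library labelled WT vehicle replicate 1 was highest. Its log2 change in KO was -0.07 (SE 0.19) with groups alone and -0.36 (SE 0.09, adjusted p = 0.052 by edgeR) with the slope term. Mrpl12 had 149, 106 and 116 CPM in KO ifetroban and 143 and 150.5 CPM in KO vehicle, against 122 and 125 CPM in WT ifetroban and 167 and 124 CPM in WT vehicle. Its log2 change in KO was 0.01 (SE 0.12) with groups alone and -0.17 (SE 0.06, adjusted p = 0.18 by edgeR) with the slope term.

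Of the Mrps18 paralogues, which are related to the same bacterial protein, Mrps18b alone lay higher in KO than in WT among libraries with a positive slope. Mrps18b had 29.8, 21.2 and 20.7 CPM in KO ifetroban and 26.8 and 25.0 CPM in KO vehicle, against 19.0 and 20.5 CPM in WT ifetroban and 25.5 and 19.1 CPM in WT vehicle. Under ifetroban its KO and WT libraries did not overlap, and with the slope term its log2 change in KO was 0.06 (SE 0.08). Mrps18a averaged 41.4 ± 8.2 CPM in KO ifetroban and 46.2 ± 3.8 CPM in KO vehicle, against 40.6 ± 1.5 CPM in WT ifetroban and 52.5 ± 13 CPM in WT vehicle. Mrps18c averaged 15.8 ± 4.3 CPM in KO ifetroban and 20.96 ± 1.1 CPM in KO vehicle, against 15.2 ± 0.24 CPM in WT ifetroban and 17.1 ± 6.1 CPM in WT vehicle. Mrpl52, the other gene above 0 in both sets, had 28.3, 20.8 and 17.6 CPM in KO ifetroban and 22.3 and 24.7 CPM in KO vehicle, against 17.6 and 15.7 CPM in WT ifetroban and 24.5 and 15.9 CPM in WT vehicle, and with the slope term its log2 change in KO was 0.09 (SE 0.10).

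How far genes varied differed within each subunit. On the log2 CPM scale the range over the 9 libraries was smallest for Mrps2, a core protein of the small subunit, at 0.24, for Mrps5 at 0.36 and, among large-subunit genes, for Mrpl10, which anchors the stalk protein Mrpl12, at 0.36 and Mrpl38 at 0.37. Mrps2 had 32.5, 33.3 and 32.9 CPM in KO ifetroban and 33.3 and 32.8 CPM in KO vehicle, against 28.7 and 33.0 CPM in WT ifetroban and 34.0 and 31.99 CPM in WT vehicle. Its libraries of both slope sets overlapped. The range was largest for Mrpl23 at 1.76, which rests on few counts, and Mrpl57 at 1.00 in the large subunit, and for Mrps36-ps2 at 1.197 and Mrps36 at 1.19 in the small subunit.

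Sgcd lies at chr11:46896253-47988969, and 10 of the 81 genes are on chromosome 11. The nearest is Mrpl22, 10.2 Mb away at chr11:58171661-58179565, with 11.7, 8.61 and 8.76 CPM in KO ifetroban and 10.2 and 12.7 CPM in KO vehicle, against 10.98 and 9.03 CPM in WT ifetroban and 12.5 and 8.50 CPM in WT vehicle. Mrpl55, 11.2 Mb away, had 62.5, 45.2 and 51.7 CPM in KO ifetroban and 64.1 and 64.0 CPM in KO vehicle, against 53.2 and 56.0 CPM in WT ifetroban and 82.0 and 53.4 CPM in WT vehicle. Over all libraries KO and WT overlapped for both. Within each slope set Mrpl55 lay lower in KO without overlap, as did 30 of 81 MRP genes and 8.99% of all tested genes. Mrpl22 overlapped within each set. The other 8 lie 40.2 Mb or farther from Sgcd.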

How the data were processed

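RNA-seq gave 9 libraries of left ventricle. The submitters' processing notes name bcl2fastq, STAR, Partek and mm10, without versions. The authors deposited expected counts per gene, and 51.3% of the values of the 81 genes were not whole numbers. They were rounded to whole numbers here. Deposited end coordinates were reduced by 1.

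edgeR 4.0.16 in R 4.3.3 (TMM scaling, robust quasi-likelihood test, Benjamini-Hochberg adjustment) was fitted to all 15549 genes passing its expression filter (minimum count 10), with 4 group means or genotype plus treatment, and tested on simulated data. DESeq2 1.42.0, other filters, a replicate block, the sign of the length slope, a length and GC offset, the other label of KO ifetroban replicate 1 and leaving out each library were alternatives. Members, lists and tests were chosen with earlier results of these data known. Named genes were the 2 of smallest p in each direction per comparison (up to 10 where 3 or more passed), the 5 highest and 3 lowest per length, the 2 of smallest and 2 of largest range per subunit, those near Sgcd, the 4 cardiomyopathy genes, Mrpl12, Mrps36 and the Mrps18 genes. Mrpl2 was named since it passed under an alternative, after its value was seen. Genes of most similar pattern are not named, since the libraries fall into 2 clusters. Totals were 21510263 to 30182955 counts, and Mrpl23 alone rests on fewer than 67 counts in every library. Same-numbered libraries did not deviate together in every pair (correlations from -0.06 to 0.50).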

Additional observations from a re-analysis of the deposited data

How the results depend on the processing

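Of the median changes over the 81 genes, 134 values under alternatives moved by less than the spread between libraries and 14 moved by more. That spread was 0.19 on the log2 scale, the pooled SD within groups of the mean deviation of the 81 genes. It was 0.22 in KO ifetroban and 0.29 in WT vehicle, the groups with both slope signs. In KO vehicle it was 0.07 and in WT ifetroban 0.01. Moves of KO against WT with the slope term, to -0.19 under vehicle and -0.15 over both treatments, thus counted as smaller. The number of genes past the threshold (adjusted p under 0.05) stayed at 0 in every comparison and alternative run, except for KO against WT over both treatments, where it was 1 with the length slope as a term and 2 with the length and GC offset. Under ifetroban in KO the median was -0.37 with KO ifetroban replicate 1 counted as vehicle, 0.046 with the slope term, 0.040 in the negative-slope libraries alone, and 0.053 with the slope term without WT vehicle replicate 1. In WT it was -0.022 with the slope term, -0.010 in the positive-slope libraries alone, and -0.011 with the slope term without WT vehicle replicate 1. Over both genotypes it was 0.0239 with the slope term and 0.0243 with that term without WT vehicle replicate 1. Leaving out each library in turn gave medians from -0.20 to 0.23 for KO against WT under vehicle, -0.44 to -0.011 for ifetroban in WT and -0.18 to 0.24 for the interaction, the ends being those without either WT vehicle library. It gave -0.11 to 0.12 for KO against WT under ifetroban, -0.069 to 0.11 over both treatments, -0.32 to -0.090 for ifetroban in KO and -0.27 to -0.11 over both genotypes. The cause was not tested.

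Single genes changed sign in 14 cases, none past a threshold. For KO against WT under vehicle, Mrps18c ran from -0.030 to 0.72 over the left-out libraries and stood at -0.024 in the negative-slope libraries alone, Mrpl48-ps ran from -0.59 to 0.020, and Mrpl49 stood at -0.040 with the slope term without WT vehicle replicate 1. For ifetroban in KO, Mrpl48-ps ran from -0.020 to 0.22 and Mrpl48 from -0.14 to 0.10 over the left-out libraries, and stood at -0.034 and -0.24 with KO ifetroban replicate 1 counted as vehicle, and Mrpl48 at -0.021 with the offset. For ifetroban in WT, Mrps22 ran from -0.11 to 0.17 and stood at -0.0022 with the offset, and Mrps5 at -0.029 with it. With a replicate block the median was 0.02 for KO against WT and -0.17 for ifetroban over both, with 0 of 81 called. Replicate numbers do not mark shared animals in the labels, so the libraries were not treated as paired.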

Other observations

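Skeletal muscle genes were found in 1 library. Myh4, Myh1 and Actn3, which encode proteins of fast skeletal fibres, had 87, 202 and 41 counts in KO ifetroban replicate 3, against 0 to 4 counts in each of the other 8 libraries. The mean deviation of the MRP genes in that library, -0.19 on the log2 scale, lay beside the -0.23 of KO ifetroban replicate 2. The part of these genes in any result was not tested.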
